A study of Mus musculus with 8 samples.

Results

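Transcripts of 10 heat shock chaperone genes of the cytosol and the mitochondria were followed: Hspa1a, Hspa1b, Hspa8, Hsp90aa1, Hsp90ab1, Hspb1, Hsph1, Hspd1, Hspe1 and Dnajb1. The genes were chosen by name, with earlier results of these data known, and all 10 were found among the 18102 genes of the table. They were measured by RNA sequencing in 8 libraries of NMuMG, an epithelial line of mouse mammary gland origin, with 2 libraries in each of 4 groups. WT cells and cells carrying the label RREB1 knockout (KO) each received either SB505124, which blocks the kinase of the type I TGFβ receptor (2.5 µM for 6 h), or TGFβ (100 pM for 1.5 h), and cells of every group had been serum-starved for 6 h. The KO columns share the code KO1, read here as 1 clone, so the genotype and the clone cannot be told apart. Cells under SB505124 are not untreated, and the treatments differ in length, so the agent and its duration cannot be told apart either.

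Chaperones bind unfolded proteins and help them reach or keep their shape. HSP70 proteins (Hspa1a, Hspa1b, Hspa8) hold short hydrophobic stretches in a cycle driven by ATP, which J-domain proteins such as Dnajb1 start and nucleotide exchange factors such as Hsph1 reset. HSP90 (Hsp90aa1, Hsp90ab1) acts later on nearly folded clients, TGFβ receptors and many other kinases among them, Hspd1 and Hspe1 form the folding chamber of the mitochondrial matrix, and Hspb1 is a small heat shock protein that works without ATP. The transcription factor HSF1 raises many of these genes under stress by binding heat shock elements, which are inverted repeats of the unit GAA, which reads TTC on the other strand. Hspa8 and Hsp90ab1 are known as the constitutive forms of their families, and Hspa1a, Hspa1b and Hsp90aa1 as the stress-inducible ones.

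The libraries held 25144204 to 32143113 reads. Values are normalised read counts, that is reads divided by each library's size factor. Rreb1, read first as a check of the labels, stood above WT in the libraries labelled KO, by 0.35 and 0.34 (log2, under SB505124 and TGFβ, limma adjusted p = 0.00153 and 0.00184): its mean normalised count was 1044 ± 15.4 (WT, SB505124), 1864 ± 134 (WT, TGFβ), 1335 ± 11.3 (KO-labelled, SB505124) and 2361 ± 169.6 (KO-labelled, TGFβ) (mean ± SD, n = 2 here and below). A small edit can leave the number of reads of a gene as it was, so this is no check of the edit, and "KO-labelled" is used as a name only. The luminal epithelial genes Krt8, Krt18, Krt19 and Cdh1 were abundant (Krt8 59377 to 115829), whereas Epcam stayed between 0 and 36.6 and Esr1 between 0 and 1.00. Summed over their 6 genes, luminal markers were 172759 to 181843 in WT and 185510 to 199074 in KO-labelled cells under SB505124, and 233164 to 234428 and 269075 to 272010 under TGFβ. The 4 fibroblast markers summed to 162 to 164 and 45.6 to 60.5 under SB505124 and to 512 to 667 and 383 to 400 under TGFβ. The 4 basal markers summed to 17.2 to 19.0 in WT and 66.1 to 87.2 in KO-labelled cells under SB505124, and to 49.1 to 57.9 and 74.1 to 81.0 under TGFβ. The 3 endothelial markers summed to 14.2 to 20.03 and 1.86 to 4.32 under SB505124 and to 24.0 to 38.9 and 6.15 to 12.5 under TGFβ. Leukocyte markers summed to 472 to 521 in WT and 574 to 690 in KO-labelled cells, adipocyte markers to 241 to 368 over all libraries, and no marker was at 0 in every library. The luminal, basal, fibroblast, leukocyte and endothelial sums thus differed between the genotypes without overlap under each treatment. The luminal, fibroblast, endothelial and adipocyte sums were higher under TGFβ without overlap in each genotype, and the basal sum in WT. A sum follows its most abundant genes, and single markers could go the other way. With TGFβ, 2 of 4 tested luminal markers rose and 1 fell in WT, and of 2 tested adipocyte markers 0 rose and 1 fell in KO-labelled cells. By genotype, of 2 tested basal markers 1 was higher and 1 lower in KO-labelled cells under each treatment. The part of these markers in the results was not tested. In such bulk samples a change in the kinds of cells and a change in RNA per cell cannot be told apart.

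The sequence before the start site is shown for the members whose heat shock elements the later results can be read against. RefSeq (GRCm38.p6) gave start sites for 7 of the 10 members, with none for Hspa8, Hsp90aa1 and Hsp90ab1. The 250 bases before each start were searched for a heat shock element of 2 units, GAANNTTC or TTCNNGAA, each of which reads the same on both strands. Such a match was present for 6 of the 7 members and for 14.6% of all 27025 genes with a start. Counted by start, it was present in 7 of the members' 10 windows and in 12.8% of all 32851 windows. Hspa1a (chr17:34972157-34972406, minus strand) and Hspa1b (chr17:34959239-34959488, minus strand) are neighbouring genes of 1 exon. Their 250 bases were 98.8% identical, with 3 differences (C44T, T47C and T249G, the Hspa1a base first, counted from 1 at the 5′ end). Both carried 1 match that began 104 bases before the start, shown in capitals:
Hspa1a: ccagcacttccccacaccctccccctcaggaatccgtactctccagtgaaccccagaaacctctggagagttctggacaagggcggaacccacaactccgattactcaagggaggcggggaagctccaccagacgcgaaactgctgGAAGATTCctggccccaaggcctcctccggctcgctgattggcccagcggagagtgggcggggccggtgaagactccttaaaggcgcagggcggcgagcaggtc
Hspa1b: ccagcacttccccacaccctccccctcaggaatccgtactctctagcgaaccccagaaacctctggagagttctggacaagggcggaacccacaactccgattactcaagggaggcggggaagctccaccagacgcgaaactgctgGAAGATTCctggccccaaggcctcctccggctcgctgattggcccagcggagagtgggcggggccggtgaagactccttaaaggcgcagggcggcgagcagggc
Hspd1 and Hspe1 lie head to head on chromosome 1, with 215 bases between the RefSeq starts at 55087932 (Hspd1) and 55088148 (Hspe1). Hspd1 has a further RefSeq start at 55088243, from which the 2 genes overlap, and the window before that start held no match. One run between them (chr1:55088053-55088082, plus strand) holds 3 overlapping matches, marked in capitals, and therefore also the element of 3 units (GAANNTTCNNGAA or TTCNNGAANNTTC), which overlaps the shorter one by its letters and was present for 0.514% of all genes:
Hspd1 and Hspe1: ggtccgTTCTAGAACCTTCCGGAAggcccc
Hsph1 (chr5:149636351-149636380, minus strand) had 1 match, 33 bases before the upstream of its RefSeq starts. The GENCODE M21 annotation starts Hsph1 further upstream, at 149636376, so by that annotation the match lies inside the gene. Hspb1 (chr5:135887801-135887830, plus strand) had 2 matches, 117 and 97 bases before its start. Matches are again in capitals:
Hsph1: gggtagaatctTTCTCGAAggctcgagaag
Hspb1: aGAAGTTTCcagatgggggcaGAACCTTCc
Dnajb1 was the 1 member with RefSeq starts and no such match before either of them, and 203 of the bases before the upstream start are shown (chr8:83607972-83608174, plus strand):
Dnajb1: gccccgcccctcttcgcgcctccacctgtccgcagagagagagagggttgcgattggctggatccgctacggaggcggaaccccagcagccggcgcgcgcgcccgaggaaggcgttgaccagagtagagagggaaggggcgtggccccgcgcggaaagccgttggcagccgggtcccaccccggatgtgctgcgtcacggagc
A CCAAT box (CCAAT or ATTGG) was present for Hspa1a, Hspa1b, Hsph1 and Dnajb1 and for 37.5% of all genes, and TATAAA (or, on the other strand, TTTATA), TGACGTCA and GTCTAGAC matched in none of the 7 members' windows. These are matches of letters and not measured binding.

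TGFβ against SB505124 in WT cells sets cells given the ligand beside cells whose receptor kinase was blocked. Hspa1b fell to 0.517 of its level, and Hsph1, Hsp90aa1, Hspd1 and the sparsely read Hspa1a fell too. Dnajb1 rose 1.52-fold, Hspb1 1.55-fold and Hspe1 1.22-fold. In all, 3 members rose and 5 fell at a limma adjusted p below 0.05, and Hspa8 and Hsp90ab1 did not pass. Over all 12498 genes tested, 43.3% passed, 20.2% upwards and 23.2% downwards. The members' median log2 fold change was -0.22, or -0.15 without Hspa1a, against -0.01 over all genes tested. Libraries of the 2 treatments did not overlap for 9 members, all but Hspa8, and for 69.8% of all genes tested. Hspa1a passed the filter on low values (a mean of at least 10) only through its SB505124 libraries, and without it 7 of 9 members passed the test. The call was lost for Hspb1, Hspd1, Hspe1 and Hspa1a under some settings, including the removal of 1 library, and only 5 of 10 members passed without WT TGFβ replicate 2. Without WT SB505124 replicate 1 Hspa1a no longer met the filter and 5 of the 9 members tested passed.

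In KO-labelled cells the same comparison gave fewer calls. Dnajb1 rose 1.37-fold, and Hspa1b, Hsph1 and Hsp90aa1 fell, to 0.529, 0.672 and 0.756 of their levels. These 4 of 10 compare with 30.9% of all genes tested (15.1% higher, 15.8% lower), and the members' median was -0.31, or -0.22 without Hspa1a, against -0.02 over all genes. Libraries did not overlap for 8 members and for 67.1% of all genes. The call of Hsp90aa1 was lost without KO-labelled SB505124 replicate 1 and without KO-labelled TGFβ replicate 2 (highest limma adjusted p = 0.0868).

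Between genotypes under SB505124, the KO-labelled libraries had less Hspa1b (0.315 of WT) and more Hspb1 (1.87-fold) and Hsph1 (1.40-fold). These were 2 higher and 1 lower of 10 members, where 56.9% of all genes passed (29.2% higher, 27.7% lower). The members' median difference was 0.01, or 0.02 without Hspa1a, against 0.01 over all genes. Libraries did not overlap for 7 members and for 78.8% of all genes. Leaving out WT TGFβ replicate 1 or 2, which enters through the shared estimate of the spread, raised the count to 5.

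Under TGFβ the KO-labelled libraries again had less Hspa1b (0.323 of WT) and also less Hspe1 (0.696), with more Hsph1 (1.36-fold) and Hsp90aa1 (1.26-fold). The 4 calls among 10 members compare with 62.9% of all genes (32.7% higher, 30.2% lower), and the median was -0.04, or -0.15 without Hspa1a, against 0.01. Libraries did not overlap for 6 members and for 79.8% of all genes. The 4 comparisons share their groups by pairs, so their values are set side by side here and not counted as separate evidence. Without WT TGFβ replicate 1 or KO-labelled TGFβ replicate 1 the call of Hsp90aa1 was lost (highest limma adjusted p = 0.136).

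**Figure D1:**
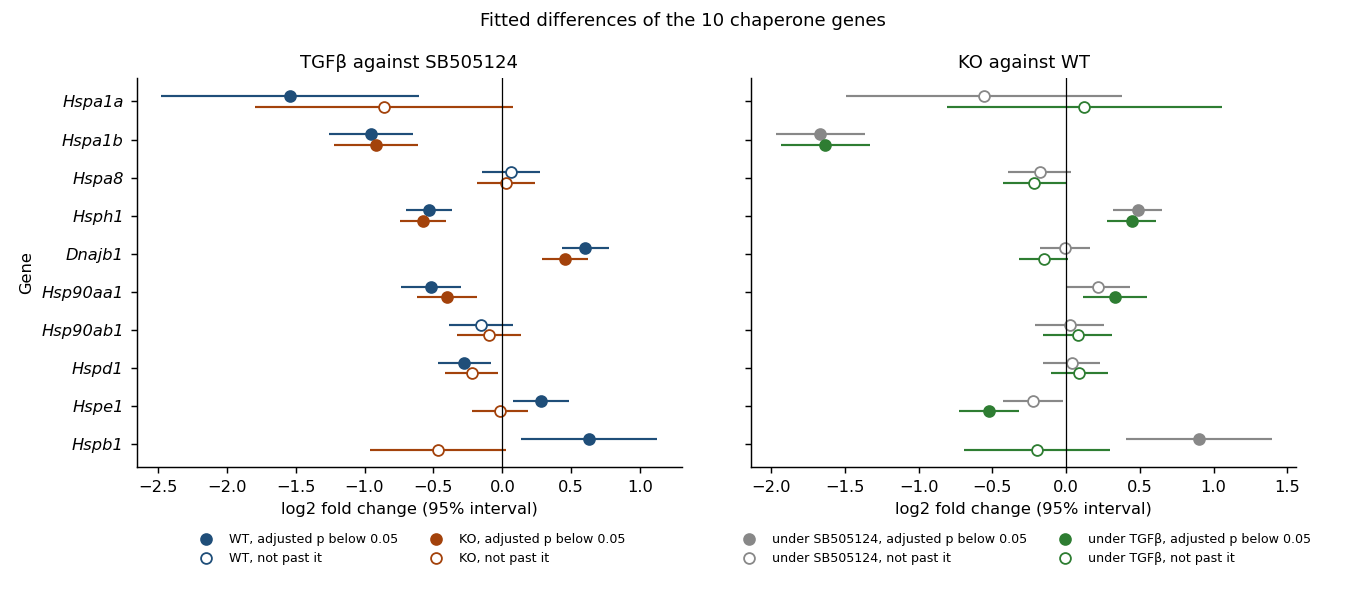
Log2 fold changes of the 10 chaperone genes (horizontal axis, with 95% intervals) for TGFβ against SB505124 in WT and KO-labelled cells (left) and for KO against WT under each treatment (right). Filled points passed an adjusted p of 0.05. Hspa1b lay to the left of 0 in all 4 comparisons (-0.95, -0.92, -1.67 and -1.63), while Hsph1 lay to the left for treatment and to the right for genotype.

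Hspa1b (chr17:34956436-34959238), the inducible HSP70 gene that held nearly all reads of the Hspa1 pair, passed in all 4 comparisons. Its normalised counts were 409.5 and 453 in WT and 139.6 and 130.4 in KO-labelled cells under SB505124, and 211 and 234 in WT and 65.5 and 76.9 in KO-labelled cells under TGFβ. Every TGFβ library was below both SB505124 libraries of its genotype, and every KO-labelled library was below all 4 WT libraries. The log2 fold change with TGFβ was -0.95 ± 0.14 in WT (model SE, limma adjusted p = 3.8e-05) and -0.92 ± 0.14 in KO-labelled cells (limma adjusted p = 6.6e-05). Against WT it was -1.67 ± 0.14 in KO-labelled cells under SB505124 (limma adjusted p = 1.2e-08) and -1.63 ± 0.14 under TGFβ (limma adjusted p = 1.5e-08). The responses of the genotypes differed by 0.03, with a 95% interval of -0.39 to 0.46.

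Hspa1a (chr17:34969190-34972156), the twin gene with nearly the same promoter, was close to the limit of detection. Its normalised counts were 19.3 and 16.0 in WT and 11.2 and 12.1 in KO-labelled cells under SB505124, and 6.32 and 4.57 in WT and 5.78 and 6.15 in KO-labelled cells under TGFβ. The SB505124 libraries stood above the TGFβ libraries in both genotypes, on 4 to 19 reads a library. Only through these SB505124 libraries did Hspa1a meet the filter on low values, so the test of its fall with TGFβ is no support for that fall. In WT it could be fitted in 16 alternatives, where Hspa1b had 20, because it did not meet the filter in the others. The fall in WT was -1.54 ± 0.45 (log2, limma adjusted p = 0.00916) and was lost with DESeq2 and without WT TGFβ replicate 2 (highest adjusted p = 0.0666), and the value in KO-labelled cells was -0.86 (limma adjusted p = 0.156). Reads of the pair are hard to assign: 58.8% of the 50-base windows of the Hspa1a transcript also occur in Hspa1b, 62.3% of those of Hspa1b occur in Hspa1a, and how shared reads were treated is not given in the sources used here. Shared reads that went uncounted would be missing from the sum of both genes too, but that sum does not depend on their split. It was 449 ± 28.2 and 228 ± 15.6 in WT under SB505124 and TGFβ and 147 ± 5.84 and 77.1 ± 8.34 in KO-labelled cells, with log2 fold changes of -0.97 and -0.92 for TGFβ and -1.61 and -1.55 for the genotype, and Hspa1b made up 91.5% to 98.1% of it. The Hspa1a exon also overlaps an antisense gene, Gm20481, over 19.0% of its length, and the library kit does not mark the strand.

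Hspa8 (chr9:40800984-40810087), the constitutive HSP70 gene, was read at 36474 and 41192 in WT and 35522 and 33058 in KO-labelled cells under SB505124, and 37413 and 43856 in WT and 34013 and 35822 in KO-labelled cells under TGFβ. WT libraries overlapped between treatments, and so did the KO-labelled ones. With TGFβ its log2 fold change was 0.06 (95% interval -0.15 to 0.28) in WT and 0.03 (-0.19 to 0.24) in KO-labelled cells, and neither passed. Both KO-labelled TGFβ libraries were below both WT ones, at -0.21 (limma adjusted p = 0.0739), a difference that passed with edgeR and DESeq2 on the recovered reads and without WT TGFβ replicate 1 (lowest adjusted p = 0.0113). Of the 50-base windows of its transcript 73.2% also occur in other genes, above all in the pseudogene Gm15459. Its annotated exons, merged over all its transcripts, overlap the small nucleolar RNAs Snord14c, Snord14d and Snord14e. The merged exons span 4301 bases, against 2394 for the 1 transcript searched, so the overlap need not lie in the main transcript. In each library Hspa1b gave 11.2 and 10.99 reads per 1000 Hspa8 reads in WT under SB505124, 5.63 and 5.34 in WT under TGFβ, 3.93 and 3.95 in KO-labelled cells under SB505124 and 1.92 and 2.15 under TGFβ. The 4 groups thus did not overlap in the ratio of the inducible to the constitutive gene.

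**Figure D2:**
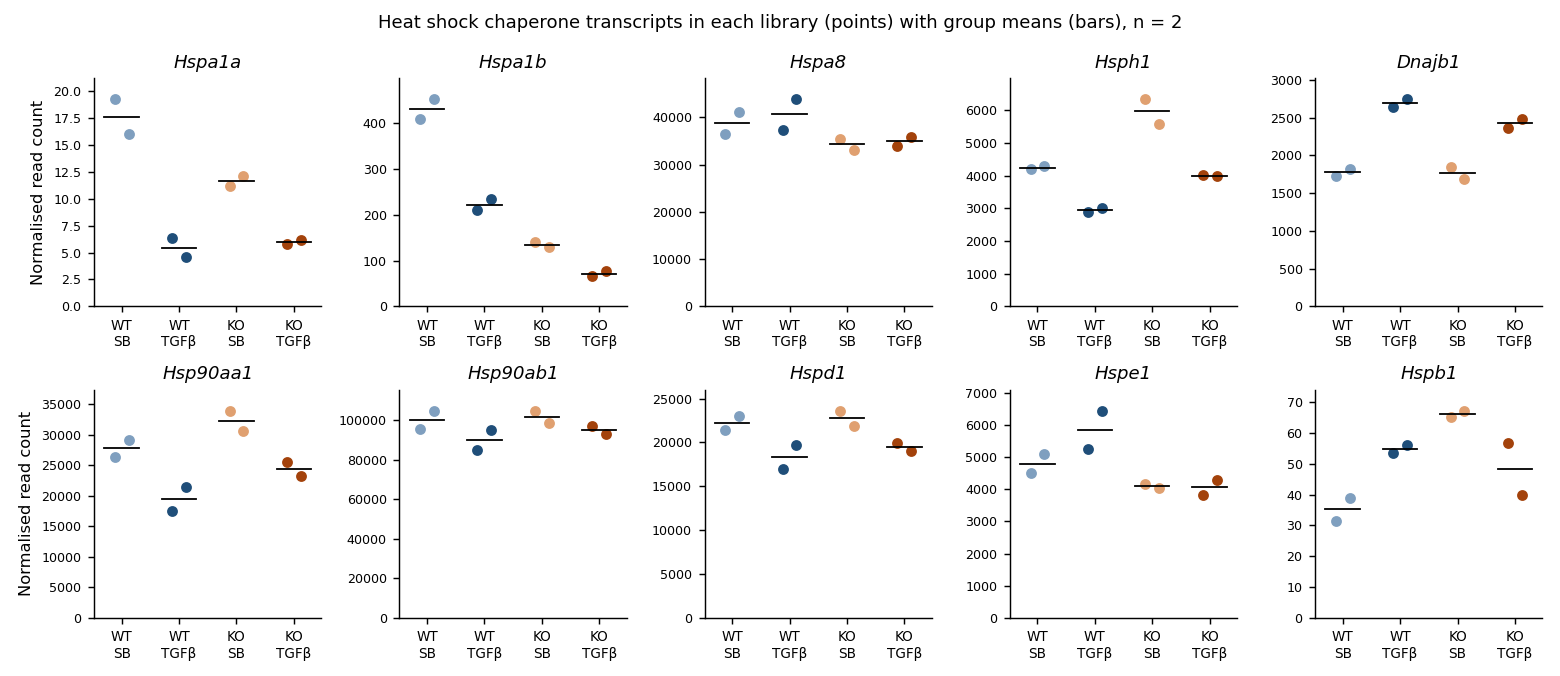
Normalised read count (vertical axis, from 0) of each chaperone gene in the 8 libraries, by genotype and treatment, with a bar at each group mean (n = 2). Hspa1b stepped down from 431 to 71.2 across the groups, Hspa8 and Hsp90ab1 passed in no comparison, and Dnajb1 and Hsph1 moved in opposite directions with TGFβ.

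Dnajb1 and Hsph1, partners of HSP70 that act at the start and at the end of its cycle, changed in opposite directions with TGFβ in both genotypes. Dnajb1 (chr8:83608193-83612653), a J-domain protein gene, was read at 1722 and 1824 in WT and 1845 and 1688 in KO-labelled cells under SB505124, and 2639.9 and 2743 in WT and 2363 and 2479 in KO-labelled cells under TGFβ. All 4 TGFβ libraries were above all 4 SB505124 libraries. The rise was 0.60 ± 0.08 (log2, limma adjusted p = 8.9e-06) in WT and 0.46 ± 0.08 (limma adjusted p = 2.3e-04) in KO-labelled cells. The genotypes differed by -0.01 under SB505124 and -0.15 under TGFβ, and neither passed.

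Hsph1 (chr5:149614287-149636376), which encodes the HSP110 exchange factor, was read at 4187 and 4307 in WT and 6337 and 5592 in KO-labelled cells under SB505124, and 2871 and 2999 in WT and 4013 and 3984 in KO-labelled cells under TGFβ. Within each genotype the TGFβ libraries were below the SB505124 libraries, and within each treatment the KO-labelled libraries were above the WT libraries. The fall with TGFβ was -0.53 ± 0.08 in WT (limma adjusted p = 3.0e-05) and -0.57 ± 0.08 in KO-labelled cells (limma adjusted p = 1.4e-05). KO-labelled cells had more by 0.49 ± 0.08 (limma adjusted p = 3.5e-05) under SB505124 and by 0.45 ± 0.08 (limma adjusted p = 7.9e-05) under TGFβ. All of these calls of Hsph1, like those of Hspa1b and Dnajb1, were kept in every alternative fit. Neither Hsph1 nor Dnajb1 shares much sequence with other genes (0% and 0.407% of windows).

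Within a library, Hsph1 reads per Dnajb1 read were 2.43 and 2.36 in WT and 3.44 and 3.31 in KO-labelled cells under SB505124, and 1.09 and 1.09 in WT and 1.70 and 1.61 in KO-labelled cells under TGFβ. The ratio combines a fall and a rise with TGFβ, and the groups did not overlap. A permutation test of 2 against 2 libraries cannot pass 0.05, so the ratios are given as values.

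Hsp90aa1 (chr12:110690605-110702728), the inducible HSP90 gene, was read at 26386 and 29160.1 in WT and 33976 and 30594 in KO-labelled cells under SB505124, and 17579 and 21396 in WT and 25564 and 23215 in KO-labelled cells under TGFβ. Within each genotype both TGFβ libraries were below both SB505124 libraries. The fall was -0.52 ± 0.10 (log2, limma adjusted p = 5.7e-04) in WT and -0.40 ± 0.10 (limma adjusted p = 0.00573) in KO-labelled cells. Under TGFβ the KO-labelled libraries were higher by 0.33 ± 0.10 (limma adjusted p = 0.00978), and under SB505124 the value was 0.22 (limma adjusted p = 0.0818), which passed without either WT TGFβ library (lowest adjusted p = 0.0333). Its transcript shares 58.5% of its windows with other genes, most of them with Gm12346.

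Hsp90ab1 (chr17:45567775-45573271), the constitutive HSP90 gene and the most read of the 10, was read at 95318 and 104767 in WT and 104830.0 and 98399.9 in KO-labelled cells under SB505124, and 84686 and 95165 in WT and 97180.5 and 92769.5 in KO-labelled cells under TGFβ. Its TGFβ libraries were below its SB505124 libraries in both genotypes, in WT by a gap far smaller than the spread within a group, and no comparison passed. The log2 fold change with TGFβ was -0.15 (95% interval -0.39 to 0.08) in WT and -0.10 (-0.33 to 0.14) in KO-labelled cells. Between genotypes it was 0.02 (-0.21 to 0.26) under SB505124 and 0.08 (-0.15 to 0.31) under TGFβ.

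Set against each other within a library, Hsp90aa1 gave 27.7 and 27.8 reads per 100 Hsp90ab1 reads in WT and 32.4 and 31.1 in KO-labelled cells under SB505124. Under TGFβ it gave 20.8 and 22.5 in WT and 26.3 and 25.02 in KO-labelled cells. The groups did not overlap, and the lowest ratios were those of WT cells under TGFβ.

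**Figure D3:**
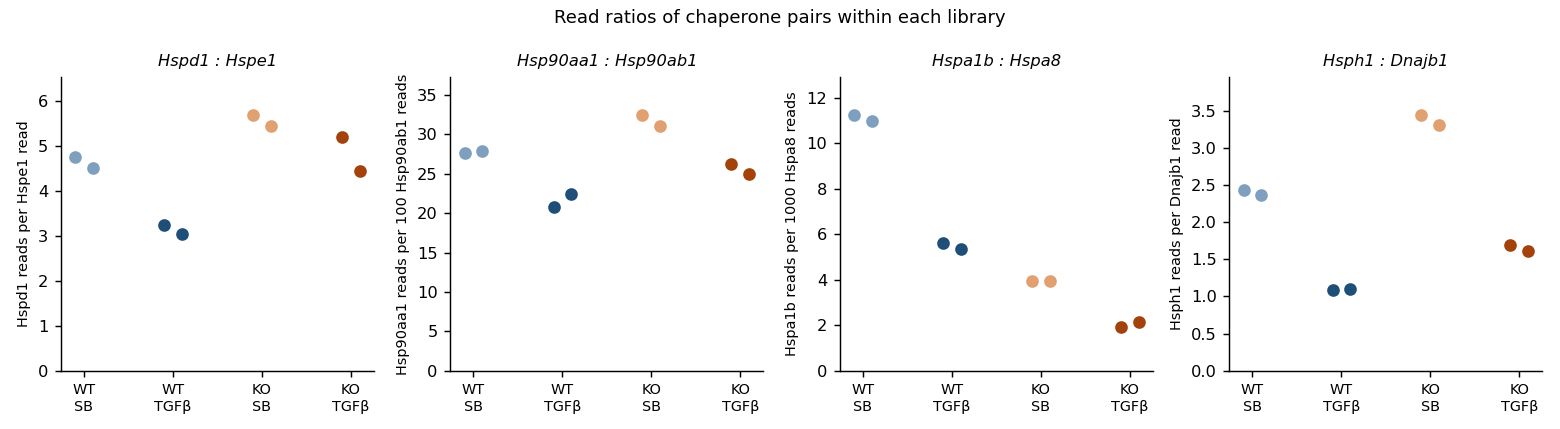
Reads of 1 chaperone gene per read, 100 reads or 1000 reads of its partner (vertical axes, from 0) in each of the 8 libraries, by genotype and treatment, for Hspd1 and Hspe1, Hsp90aa1 and Hsp90ab1, Hspa1b and Hspa8, and Hsph1 and Dnajb1. Each ratio was lower under TGFβ than under SB505124 in WT, with Hspd1 per Hspe1 read going from a mean of 4.63 to 3.14.

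The mitochondrial pair shares the start region shown above, but its reads did not move together with TGFβ in WT. Hspd1 (chr1:55077835-55088243), which encodes HSP60, the wall of the folding chamber, was read at 21389.7 and 22976 in WT and 23649 and 21915 in KO-labelled cells under SB505124, and 17022 and 19686 in WT and 19928 and 19078 in KO-labelled cells under TGFβ. Each TGFβ library was below both SB505124 libraries of its genotype. The fall was -0.28 ± 0.09 (log2, limma adjusted p = 0.0203) in WT, and the value in KO-labelled cells was -0.22 (limma adjusted p = 0.0714), which passed with DESeq2 and without either WT TGFβ library (lowest adjusted p = 0.033). The WT call did not hold in 5 of 20 alternatives, including the fits without WT SB505124 replicate 2 and without WT TGFβ replicate 1 (highest adjusted p = 0.18). Between genotypes the differences were 0.04 under SB505124 and 0.09 under TGFβ, and neither passed.

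Hspe1 (chr1:55088132-55091307), which encodes HSP10, the lid of the chamber, was read at 4496 and 5111 in WT and 4169 and 4034 in KO-labelled cells under SB505124, and 5263 and 6459 in WT and 3839 and 4292 in KO-labelled cells under TGFβ. In WT both TGFβ libraries were above both SB505124 libraries, in KO-labelled cells the treatments overlapped, and under each treatment the KO-labelled libraries were below the WT libraries. The rise with TGFβ in WT was 0.28 ± 0.10 (limma adjusted p = 0.0240), and the value in KO-labelled cells was -0.01 (limma adjusted p = 0.929). In 4 of 20 alternatives the WT call did not hold, including the fits without WT SB505124 replicate 1 and without WT TGFβ replicate 2 (highest adjusted p = 0.287). KO-labelled cells had less by 0.52 ± 0.10 under TGFβ (limma adjusted p = 1.2e-04), while under SB505124 the value was -0.23 (limma adjusted p = 0.0539), which passed in 11 of 21 alternatives, including edgeR, DESeq2 and the fits without WT SB505124 replicate 1 or either WT TGFβ library.

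Hspd1 reads per Hspe1 read were 4.76 and 4.50 in WT under SB505124, 3.23 and 3.05 in WT under TGFβ, 5.67 and 5.43 in KO-labelled cells under SB505124 and 5.19 and 4.44 in KO-labelled cells under TGFβ. WT libraries under TGFβ were the lowest of the 8, and the KO-labelled treatments did not overlap. Of the transcripts' 50-base windows, 44.8% for Hspd1 and 36.1% for Hspe1 also occur in other genes, mostly pseudogenes. The exons of the pair overlap on opposite strands over 112 bases, or 4.24% and 7.6% of their lengths, and reads from there cannot be split by strand.

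Hspb1 (chr5:135887919-135889563), the small heat shock protein gene, was read at 31.4 and 39.1 in WT and 65.1 and 67.4 in KO-labelled cells under SB505124, and 53.7 and 56.0 in WT and 56.8 and 40.0 in KO-labelled cells under TGFβ. In WT both TGFβ libraries were above both SB505124 libraries, and in KO-labelled cells both were below. The rise in WT was 0.63 ± 0.24 (log2, limma adjusted p = 0.0370), and it did not hold in 6 of 20 alternatives, including DESeq2, the replicate block (adjusted p = 0.0507) and the fits without WT SB505124 replicate 1 or either WT TGFβ library (highest adjusted p = 0.215). The value in KO-labelled cells was -0.47 ± 0.24 (limma adjusted p = 0.144). Under SB505124 KO-labelled cells had more Hspb1 by 0.90 ± 0.24 (limma adjusted p = 0.00308), and under TGFβ the value was -0.20 (limma adjusted p = 0.480). Each library held few Hspb1 reads, and 51.7% of its windows also occur in other genes, chiefly the pseudogene Hsp25-ps1.

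Whether the TGFβ response differed between genotypes was tested directly, as KO minus WT. By limma none of the 10 members passed, where 2.82% of all genes tested did (352 of 12498, 2.25% higher and 0.568% lower), and edgeR and DESeq2 on the recovered reads also called 0 members. At an unadjusted p below 0.05 there were 2, Hspb1 and Hspe1. For Hspb1 the difference was -1.10 ± 0.33 (95% interval -1.80 to -0.40, limma adjusted p = 0.0875), and for Hspe1 it was -0.30 ± 0.14 (-0.58 to -0.01, limma adjusted p = 0.280). Hspe1 passed in the fit without WT TGFβ replicate 1. Hsph1 and Dnajb1 had narrow intervals for the difference, -0.28 to 0.19 and -0.38 to 0.09, and Hspa1a a wide one, -0.64 to 2.00.

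Levels can be compared between genes only per transcript length, for which RPKM (reads scaled by annotated exon length and by library size) was computed with GENCODE M21 exon lengths. Hsp90ab1 had the highest level of the 10, with a mean RPKM of 1145 (library range 996 to 1259), rank 13 of 17151 genes with a length. Hspa8 (307, range 273 to 355), Hspd1 (279, 227 to 319) and Hsp90aa1 (235, 158 to 308) followed, with library ranges that overlapped each other. Hspe1 was at 113 (89.8 to 152). These neighbours depend on the length used. Over the length of 1 transcript per gene, an alternative chosen after the data were seen, Hspa8 was at 551 (489.7 to 637), apart from Hspd1 at 304 (248 to 348), and Hspe1 at 216 (171 to 290.4) overlapped Hspd1 and Hsp90aa1 (282, 189 to 369). Over exon length Dnajb1 (23.9, 19.0 to 29.8) and Hsph1 (20.99, 13.9 to 31.1) overlapped and changed order: Dnajb1 was at 29.4 against 14.2 in WT under TGFβ, and at 19.8 against 29.4 in KO-labelled cells under SB505124. Over transcript length Hsph1 had the higher mean (40.1, 26.6 to 59.4, against 25.6, 20.3 to 31.9), again with overlap. Hspa1b (2.74, 0.805 to 5.82) and Hspb1 (1.76, 1.12 to 2.35) also overlapped, and Hspa1a was lowest at 0.123 (0.0536 to 0.238). The members also differed in the share of 50-base windows found in other genes, from 0% for Hsph1 and 4.49% for Hsp90ab1 to 73.2% for Hspa8. How shared reads were treated is not given in the sources used here, so levels may be misstated by unlike amounts between genes. Together the 10 genes took 0.592% to 0.756% of all reads, and Hsp90ab1 alone 0.299% to 0.378%.

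Likeness of pattern was measured as the root mean square difference between 2 genes' mean log2 levels in the 4 groups, each gene centred on its own mean. Among the members, Hsp90ab1 and Hspd1 were closest (0.06 log2), followed by Hsp90aa1 and Hsph1 (0.11). The measure is small for any 2 genes that vary little. Hsp90ab1 and Hspd1 spanned only 0.18 and 0.31 log2 over the groups, so their closeness is no sign of a shared pattern. Among other genes with a mean of at least 50, Slc25a36 (0.0083) and Nol8 (0.016) were closest to Hsph1, Tead1 (0.015) and Atad5 (0.016) to Hsp90aa1, Dcun1d5 (0.0081) and Mrpl12 (0.0083) to Hspe1, and Zfp821 (0.019) and Adam4 (0.023) to Dnajb1. The row named Mir31 (0.059) and Nab2 (0.13) were closest to Hspa1b, Suox (0.10) and Apln (0.10) to Hspa1a, and St5 (0.11) and Magi2 (0.12) to Hspb1. Mir31 ran from 123 in WT under SB505124 to 67.7 in WT under TGFβ, 36.6 in KO-labelled cells under SB505124 and 20.5 under TGFβ. Hspa8, Hsp90ab1 and Hspd1 spanned less than 0.5 log2 over the groups, and no gene was sought for them. With 4 group means per gene, close matches among this many genes are a description only.

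The heat shock factor genes were read as well. Hsf1, the main activator of these genes under stress, was read at 1749 and 1739 in WT and 1359 and 1493 in KO-labelled cells under SB505124, and 2061 and 1879 in WT and 1525 and 1703 in KO-labelled cells under TGFβ. With TGFβ it did not pass in either genotype (0.17 and 0.18), and it was lower in KO-labelled libraries, with differences of -0.29 ± 0.09 (limma adjusted p = 0.00781) under SB505124 and -0.29 ± 0.09 (limma adjusted p = 0.00755) under TGFβ. Each of these calls was lost without replicate 1 of either group compared (highest adjusted p = 0.116). Hsf2, a related factor, fell with TGFβ in KO-labelled cells by 0.27 (limma adjusted p = 0.0319), with -0.22 in WT (limma adjusted p = 0.0626), and was higher in KO-labelled cells under SB505124 by 0.25 (limma adjusted p = 0.0276). Both Hsf2 calls were lost in several fits that left out 1 library, up to an adjusted p of 0.404.

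Lists of other chaperone genes were counted in the same way, against the shares of all genes that passed in either direction. These were 43.3% and 30.9% for TGFβ in WT and KO-labelled cells, and 56.9% and 62.9% for genotype under SB505124 and TGFβ. By direction, 20.2% and 15.1% of all genes rose and 23.2% and 15.8% fell with TGFβ in WT and KO-labelled cells. In KO-labelled cells 29.2% and 32.7% were higher and 27.7% and 30.2% lower under SB505124 and TGFβ. Shares below are for either direction unless a direction is named. Of 16 tested HSF1 targets and related stress genes, most of them cytosolic, 4 rose and 2 fell with TGFβ in WT and 2 rose and 2 fell in KO-labelled cells, smaller shares than among all genes. Bag3, an HSF1 target that links HSP70 to selective autophagy, rose from 1657 to 2865 in WT (log2 0.79, limma adjusted p = 1.7e-07) and from 1709.6 to 3272 in KO-labelled cells (0.94, limma adjusted p = 1.3e-08). Hspa4l, a relative of Hsph1, fell in both genotypes (-0.77 and -0.56), as Hsph1 did. Hmox1, the haem oxygenase gene, rose in both (0.35 and 0.36), a call that was lost without WT SB505124 replicate 1 (adjusted p = 0.0615) and without KO-labelled TGFβ replicate 2 (adjusted p = 0.0763), respectively.

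By genotype the same list had 4 higher and 3 lower genes in KO-labelled cells under SB505124 and 6 higher and 4 lower under TGFβ, no more than among all genes. Serpinh1, which encodes HSP47, a collagen chaperone that resides in the endoplasmic reticulum, was at 4817 and 5544 in WT under SB505124 and TGFβ and at 19.6 and 24.5 in KO-labelled cells (log2 -7.87 and -7.79). Cryab, a small heat shock protein gene like Hspb1, was lower (log2 -2.56 ± 0.10 and -3.08 ± 0.10), and Hmox1 was higher by 1.52 and 1.52. Hspb1 itself was higher in KO-labelled cells under SB505124, so these 2 small heat shock protein genes differed in direction there.

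Among 10 further J-domain genes, 2 rose and 1 fell with TGFβ in each genotype, a share below that of all genes in WT and near it in KO-labelled cells. Dnajb4, a close relative of Dnajb1, fell where Dnajb1 rose: from 908 to 447 in WT (-1.02 ± 0.09, limma adjusted p = 7.5e-08) and from 1482 to 433 in KO-labelled cells (-1.77 ± 0.09, limma adjusted p = 2.1e-11). Dnajb6 rose in both (0.43 and 0.29), with the call in KO-labelled cells lost without KO-labelled SB505124 replicate 2 or either TGFβ library (highest adjusted p = 0.097). In KO-labelled cells 2 were higher and 3 lower under SB505124, and 4 were lower under TGFβ. In either direction these were again smaller shares than among all genes. Both counts of lower genes include Dnaja4, which met the filter on low values only through its WT libraries. They are therefore not read against the 27.7% and 30.2% of all genes that were lower. Dnaja4 was at 164 and 243 in WT and at 4.09 and 2.95 in KO-labelled cells, and Dnaja1 was lower by 0.57 and 0.67.

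Cochaperones of HSP90 and HSP70 made up the next lists. Of 12 HSP90 cochaperones, 4 rose and 1 fell with TGFβ in WT and 2 rose in KO-labelled cells. The latter were Fkbp5 (0.68, limma adjusted p = 1.1e-06) and Tomm34 (0.23, limma adjusted p = 0.0389). In either direction both shares were below those of all genes, while the shares that rose were not, against 20.2% and 15.1%. By genotype 1 was higher and 3 lower under SB505124 and 2 higher and 3 lower under TGFβ, also smaller shares. Sugt1, which recruits HSP90 to leucine-rich repeat proteins, was lower in KO-labelled cells under both treatments (-0.80 and -0.98). Of 8 exchange factors and ubiquitin cochaperones of HSP70, 1 rose and 2 fell with TGFβ in WT and 1 fell in KO-labelled cells. By genotype 3 were higher and 3 lower under SB505124 and 4 higher and 2 lower under TGFβ. The TGFβ shares were below those of all genes and the genotype shares above them, in a list of only 8 genes. Bag1 rose with TGFβ in WT (0.54 ± 0.09, limma adjusted p = 9.5e-05) and was lower in KO-labelled cells (-0.77 and -1.17), and Bag4 fell with TGFβ in both genotypes (-0.60 and -0.58). The Tomm34 call in KO-labelled cells did not hold in 8 of 20 alternatives, including each fit that left out a library other than the WT TGFβ ones (highest adjusted p = 0.237).

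Among 12 further mitochondrial chaperones and proteases, 2 rose and 2 fell with TGFβ in WT and 2 fell in KO-labelled cells, and by genotype 3 were higher and 2 lower under SB505124 and 4 higher and 2 lower under TGFβ, each a smaller share than among all genes. Dnaja3, a mitochondrial J-domain gene, fell in both genotypes (-0.35 and -0.31), with the call in KO-labelled cells lost without KO-labelled SB505124 replicate 1 (adjusted p = 0.0596). Grpel2, an exchange factor for mitochondrial HSP70, was higher in KO-labelled cells (0.77 and 0.79), and the protease gene Lonp1 was lower (-0.41 and -0.31). Of 13 genes of the cytosolic chaperonin TRiC and its partner prefoldin, 4 rose with TGFβ in WT, among them Pfdn1 (0.45) and Pfdn5 (0.46), where 20.2% of all genes rose, and none passed in KO-labelled cells. Under TGFβ 7 were lower in KO-labelled cells, among them Pfdn5 (-0.68) and Pfdn1 (-0.50), and 1, Vbp1 (0.33), was higher, where 30.2% of all genes were lower and 32.7% higher. Under SB505124 3 were lower and 1, again Vbp1 (0.52), was higher. Vbp1 is named for these counts after its values were seen.

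Endoplasmic reticulum chaperones, taken as another compartment, fell or did not pass with TGFβ: 6 of 12 fell in WT and 3 in KO-labelled cells, where 23.2% and 15.8% of all genes fell. By genotype 6 were lower and 1 higher under SB505124, and 5 lower and 1 higher under TGFβ. Of all genes 27.7% and 30.2% were lower and 29.2% and 32.7% higher. Hspa5, the HSP70 of that compartment, fell by 0.45 and 0.35, and Dnajb9 by 0.71 and 0.85. The list's median was -0.20 in WT and -0.11 in KO-labelled cells, where all genes had -0.01 and -0.02. For the 10 chaperones of the cytosol and mitochondria the medians without Hspa1a were -0.15 and -0.22, with members on both sides of 0.

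**Figure D4:**
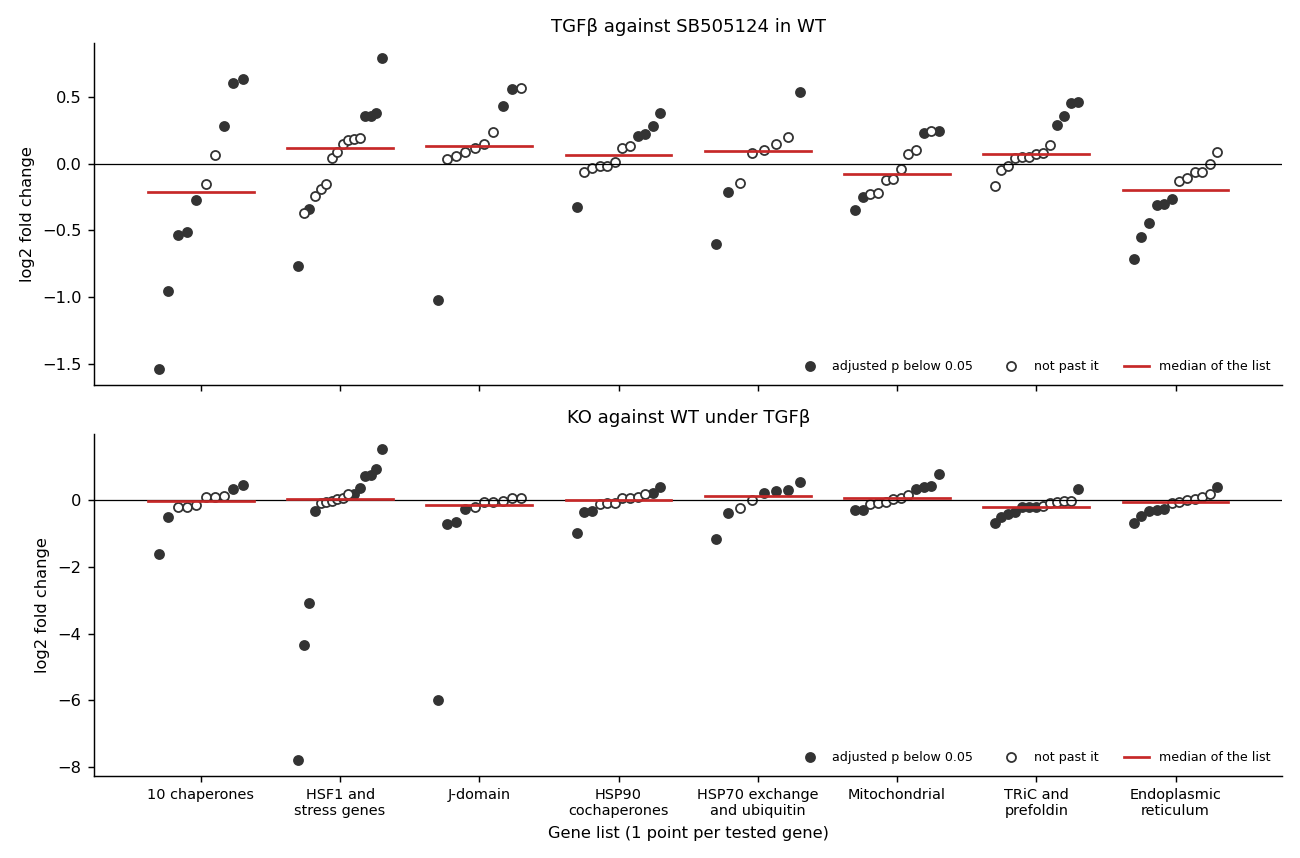
Log2 fold changes (vertical axis) of the tested genes of each list, 1 point per gene, for TGFβ against SB505124 in WT (top) and KO against WT under TGFβ (bottom), with filled points past an adjusted p of 0.05 and a line at each list's median. The 10 chaperones ran from -1.54 (Hspa1a) to 0.63 (Hspb1) with TGFβ in WT, and the lowest point of the lower panel was Serpinh1 at -7.79.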

How the data were processed

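The authors deposited 1 table of signal values per gene and library, in units of reads over a library's size factor. The tools named, per the submitters' processing notes, were HTSeq 0.6.1p1, DESeq2 3.4 and FastQC 0.11.5, with the build mm10, and the aligner is not given in the sources used here. Values were whole multiples of 1 step in every library (100% within 0.01 reads). This returned each library's reads and its size factor (0.875 to 1.16). From these values, log2(value + 1) was fitted with limma 3.58.1 (R 4.3.3), with a variance trend, as 4 group means over all 8 libraries, with Benjamini-Hochberg adjustment over the 12498 genes with a mean of at least 10. Fold changes on this scale understate the change of genes with few reads. The threshold was 0.05, and the model had 4 residual and 14.3 prior degrees of freedom. No label states that the replicates came from separate cultures, so a p-value here covers the spread between these samples alone, which in each group exceeded counting noise and may be technical.

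The count test was edgeR 4.0.16 or DESeq2 1.42.0 on the recovered reads, run as alternatives, with scaling, filters, pseudocounts, a replicate block and left-out libraries as the others. The procedure was tested on simulated data. Gene positions come from GENCODE M21 (GRCm38, which is mm10), and shared sequence was counted over 50-base windows of its transcripts. Members and lists were chosen with earlier results of these data known. From each list, up to 3 genes past the threshold with the smallest p were eligible to be named in each comparison, and a selection of these is printed. The markers were 6 lists of luminal, basal, fibroblast, leukocyte, endothelial and adipocyte genes.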

Additional observations from a re-analysis of the deposited data

Results flagged for a closer look

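The TGFβ response of 2 cochaperone genes differed between the genotypes by the direct test of that difference (KO minus WT). They were 2 of 83 tested genes of the chaperone lists, or 2.41%, a share no higher than the 2.82% of all genes tested. Dnajb4, a J-domain gene, fell further in KO-labelled cells, and its responses differed by -0.75 ± 0.13 on the log2 scale (limma adjusted p = 0.00235, n = 2 in each of 4 groups). Fkbp5, an HSP90 cochaperone and prolyl isomerase gene, had normalised counts of 2346 and 2739 in WT under SB505124 and TGFβ and of 1575 and 2522 in KO-labelled cells, a difference of responses of 0.45 ± 0.11 (limma adjusted p = 0.0264). The Dnajb4 call was lost without the variance trend (adjusted p = 0.0626). The Fkbp5 call did not hold in 6 of 19 alternatives, including the fits without either WT SB505124 library or either KO-labelled TGFβ library (highest adjusted p = 0.158).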

How the results depend on the processing

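Of the 19 member calls over the 5 comparisons, 13 were kept in every alternative and 6 were lost in some: Hspa1a, Hspb1, Hspd1 and Hspe1 with TGFβ in WT, and Hsp90aa1 with TGFβ in KO-labelled cells and between genotypes under TGFβ. The Hspa1a call is counted here but is no support, as the gene met the filter on low values only through its SB505124 libraries. Of 31 values that did not pass, 9 passed in some alternative. The 1 reversed value was Hspa1a between genotypes under TGFβ, which was -1.55 when Hspa1a and Hspa1b were summed, a sum made up mostly of Hspa1b. With no filter on low values 5 members passed with TGFβ in WT, and 134 genes passed for the difference of responses, which had 352; without a variance trend that count was 47. With only the 2 groups compared 5 members passed between genotypes under SB505124; the cause was not tested.

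Leaving out each library in turn gave 5 to 8 members for TGFβ in WT, 3 to 5 for TGFβ in KO-labelled cells, 3 to 5 and 3 to 4 for genotype under SB505124 and TGFβ, and 0 to 1 for the difference. The genes passing numbered 3698 to 5561, 2318 to 4398, 5709 to 7454, 6435 to 7947 and 141 to 1050. The highest count of the last came without WT TGFβ replicate 1, and the lowest were 141 without WT SB505124 replicate 1, 170 without its replicate 2 and 150 without KO-labelled TGFβ replicate 1, while the fits without each of the other 4 libraries gave 329 to 433. The lowest counts for TGFβ in KO-labelled cells were 2331 without SB505124 replicate 1 and 2318 without TGFβ replicate 2.

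Samples with the same replicate number did not deviate together throughout (correlations of -0.413 to 0.355), so the numbers are taken as names. Between the treatments of 1 genotype the correlation was positive, 0.355 in WT and 0.201 in KO-labelled cells. The value of -0.413 was between WT TGFβ and KO-labelled SB505124. With a replicate block 5359, 3658, 7103, 7835 and 252 genes passed, against 5416, 3864, 7117, 7865 and 352, and 7, 4, 4, 5 and 0 members. With the KO-labelled SB505124 numbers crossed, a pairing added after the data were seen, 7570 genes and 6 members passed between genotypes under SB505124. Few reads limit Hspa1a and Hspb1.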
